A study of Mus musculus with 7 samples.

Results

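The 6 genes described here set the balance between phosphate and pyrophosphate around mineralizing cells: Alpl, Phospho1, Enpp1, Ank, Slc20a1 and Slc20a2. They were chosen by name and not by a cutoff on their values, but with earlier results of these data known. They are 6 of 25700 genes counted in the lower incisor epithelium of newborn mice. All 6 were expressed strongly enough to be tested, among 14791 genes in all. Ank is the annotation's name for the progressive ankylosis gene.

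Enamel and dentin crystals grow from calcium and phosphate, and pyrophosphate, which is a pair of joined phosphates, blocks their growth. Enpp1 makes extracellular pyrophosphate by splitting ATP, and Ank carries pyrophosphate, or the ATP it is made from, out of the cell. Alpl, the tissue-nonspecific alkaline phosphatase, breaks pyrophosphate down and so both removes the inhibitor and frees phosphate. Phospho1 releases phosphate from phosphocholine and phosphoethanolamine inside matrix vesicles, while Slc20a1 and Slc20a2 are sodium-dependent transporters that bring phosphate into the cell. In the enamel organ, alkaline phosphatase is best known from the stratum intermedium, the cell layer behind the ameloblasts that secrete enamel. Alpl, Phospho1 and Ank are also active in odontoblasts and osteoblasts, the mesenchymal cells that make dentin and bone.

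The epithelium came from K14;Nogo-A pups (genotype K14cre cre/+; Nogo-A fl/fl, replicates 1, 2, 7 and 10) and from wild-type pups (labelled wt, replicates 3, 8 and 9), all newborn (PN0). K14-cre is driven by a keratin promoter of epithelial cells, so the floxed Nogo-A gene is removed from dental epithelium but also from other K14-expressing epithelia. The labels give wild-type pups neither K14cre nor a floxed allele, so any effect of the transgene and that of the deletion cannot be told apart. The left and right incisors of 1 pup were pooled into 1 library after the epithelium had been lifted off with Dispase, and the pup is the replicate. The study calls its controls littermates, but the labels place no pup in a litter and give no sex. Of the study's wild-type pups, 1 was not used here. The question asked of the 6 genes is whether their RNA levels differed between epithelia without and with Nogo-A.

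The libraries held 20929207 to 29728532 counts in K14;Nogo-A, against 21021158 to 41219439 in wild-type. Levels are given as CPM, the counts of a gene scaled to a common library size after TMM normalization, per 1e6 counts. Rtn4, the gene of Nogo-A, was read at 297 to 344 CPM in K14;Nogo-A and 277 to 346 CPM in wild-type, and a count over the whole gene does not test for loss of the floxed exon. The 10 dental epithelium markers were present in every library. The 24 mesenchyme markers were present too, with a summed level of 15000 to 38910 CPM in K14;Nogo-A and 32710 to 48800 CPM in wild-type. Their mean log2 CPM did not overlap between the genotypes (7.61 to 7.83 in K14;Nogo-A, 8.11 to 8.29 in wild-type), and 23 of 24 were lower in K14;Nogo-A. K14;Nogo-A replicate 1 lay apart from the other K14;Nogo-A libraries. Amelx, the amelogenin gene, took 2.76% of its counts, against 5.81% to 7.08% in the other 3 K14;Nogo-A libraries and 1.11% to 3.36% in wild-type. The Y-linked genes were high in K14;Nogo-A replicate 1 and wild-type replicates 3 and 8 and low in the other 4 libraries, so the genotypes are unbalanced for them. In bulk tissue, fewer cells of a type and less RNA per cell cannot be told apart.

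Promoter sequences are shown for Enpp1 and Slc20a1, the 2 members that passed the study's thresholds described below. They are RefSeq sequences of build GRCm38.p6 that run from 250 bases before to 50 bases after the annotated start, 5′ to 3′ on the strand of the gene, and capitals mark motif matches on either strand. Enpp1 lies on the minus strand and Slc20a1 on the plus strand.
Enpp1, chr10:24712110-24712409: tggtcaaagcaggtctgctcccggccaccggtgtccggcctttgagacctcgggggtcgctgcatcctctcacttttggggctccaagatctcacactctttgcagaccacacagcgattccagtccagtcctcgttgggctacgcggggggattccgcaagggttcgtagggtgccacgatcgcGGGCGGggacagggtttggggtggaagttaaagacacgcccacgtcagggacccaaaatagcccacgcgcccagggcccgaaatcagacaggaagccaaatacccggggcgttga
Slc20a1, chr2:129198523-129198822: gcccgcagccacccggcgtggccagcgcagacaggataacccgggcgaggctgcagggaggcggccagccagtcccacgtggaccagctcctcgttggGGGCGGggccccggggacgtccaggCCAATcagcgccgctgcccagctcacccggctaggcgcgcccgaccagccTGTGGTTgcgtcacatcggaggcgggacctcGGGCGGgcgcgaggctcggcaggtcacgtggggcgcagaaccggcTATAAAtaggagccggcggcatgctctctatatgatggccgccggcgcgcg
The Enpp1 window is 61.7% G or C with 22 CpG and holds a single GC box (GGGCGG), which begins 65 bases before the start. The Slc20a1 window is 73.0% G or C with 36 CpG. It holds GC boxes at -152 and -46, a CCAAT box (CCAAT) at -127, a RUNX motif (TGTGGTT) at -77 and a TATA box (TATAAA) at -1. Of 32851 mouse promoters of the same length, 35.7% hold the GC box, 37.4% the CCAAT box, 5.3% the RUNX motif and 13.6% the TATA box, and the median content of G or C is 52.7%. An internal start of Slc20a1 (chr2:129206846-129207145, plus strand) holds the letters GAANNTTC, a short motif within heat shock elements, at -91. Of all promoters, 7.9% hold these letters. None of the other member windows matched these letters. A promoter was matched for 5 of the 6 members. The letters searched are a description of these windows and were not tested as binding sites.

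None of the 6 genes passed edgeR's quasi-likelihood test after Benjamini-Hochberg adjustment over all genes (adjusted p below 0.05). Over all 14791 genes, 5 passed, or 0.0338%. At an unadjusted p below 0.05, which 12.9% of all genes had, there was 1 member higher and 1 lower in K14;Nogo-A, Slc20a1 and Enpp1, and the likelihood-ratio test of edgeR, DESeq2 and limma-voom also called none of the 6 after adjustment and the same number in each direction before it. The same 2 of 6 genes passed the thresholds the study used, an unadjusted p of up to 0.05 together with a log2 ratio of 0.5 or more in either direction, which 4.77% of all genes passed (2.02% higher, 2.74% lower). The alkaline phosphatase and both phosphate transporters had higher mean levels in K14;Nogo-A, and both genes of pyrophosphate supply and Phospho1 had lower ones. Only for Enpp1 did the genotypes not overlap, which was also true of 11.5% of all genes (5.43% higher, 6.09% lower).

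**Figure D1:**
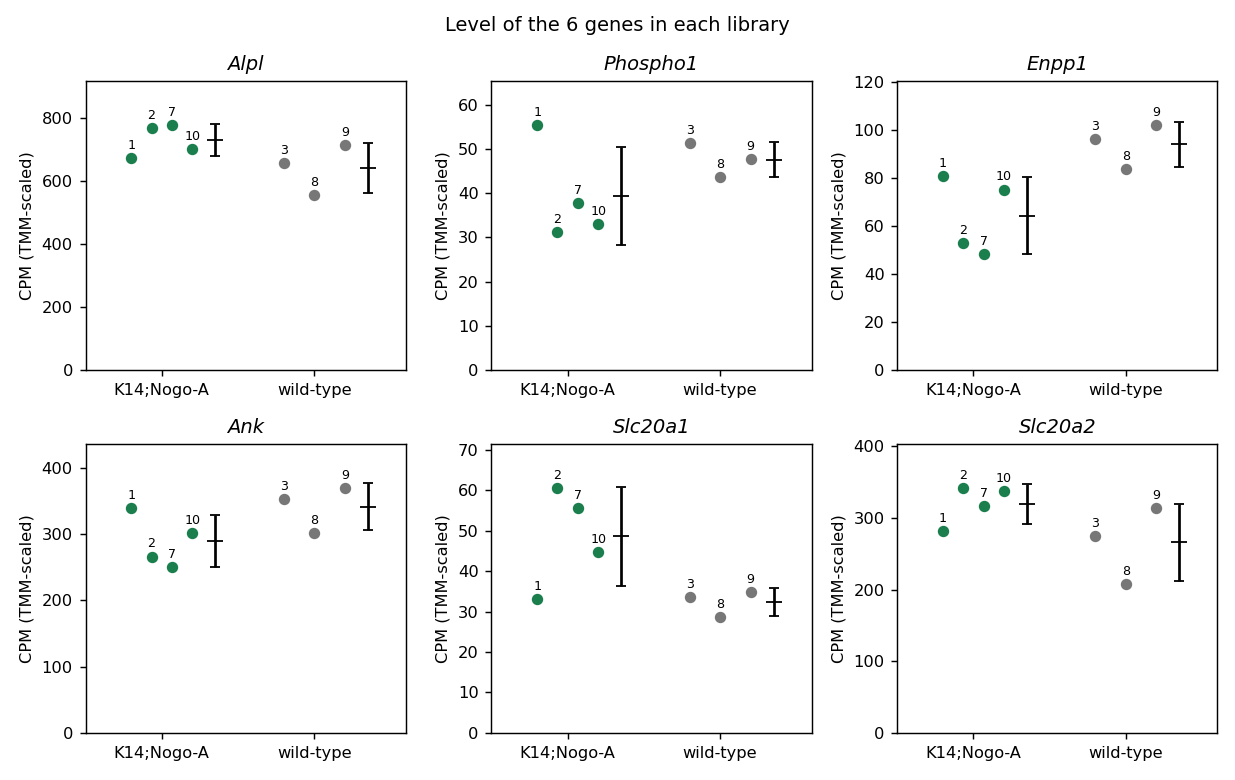
Level of the 6 genes in each library, in TMM-scaled CPM on axes that start at 0. Points are single pups with their replicate numbers, and the bars beside them give mean and SD. The K14;Nogo-A points of Enpp1 (48.5 to 80.9 CPM) all lie below the wild-type points (83.9 to 102 CPM), and in the other 5 panels the genotypes overlap.

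Alpl (ENSMUSG00000028766, GRCm38 chromosome 4, 137741733 to 137796384, minus strand) was the most abundant of the 6. It stood at 672, 768, 777 and 701 CPM in K14;Nogo-A replicates 1, 2, 7 and 10, against 657, 556 and 713 CPM in wild-type replicates 3, 8 and 9. Only wild-type replicate 9 reached into the K14;Nogo-A values, above replicates 1 and 10. The means were 729 ± 51.2 CPM in K14;Nogo-A (SD, n = 4) and 642 ± 79.4 CPM in wild-type (SD, n = 3). K14;Nogo-A over wild-type gave a log2 fold change of 0.18 (SE 0.11, edgeR adjusted p = 0.506), with a 95% interval of -0.06 to 0.43.

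Phospho1 (ENSMUSG00000050860, chromosome 11, 95824499 to 95832140, plus strand) had 55.3, 31.2, 37.8 and 33.0 CPM in K14;Nogo-A, against 51.4, 43.6 and 47.7 CPM in wild-type, in the same order of replicates. K14;Nogo-A replicate 1 was the highest of all 7 libraries and the other 3 K14;Nogo-A libraries were the lowest. The log2 fold change was -0.28 (SE 0.18, 95% interval -0.67 to 0.12, edgeR adjusted p = 0.535). Its counts are uncertain because most of its exons are also annotated to neighbours, 89.6% of their length to Zfp652 on the same strand and 84.2% to Abi3 on the opposite strand. Reads from the shared part may have been lost or given to another gene, and whether the counting used the strand of the reads was not stated in the sources. Zfp652 was read at 116 to 131 CPM in K14;Nogo-A and 136 to 141 CPM in wild-type.

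Enpp1 (ENSMUSG00000037370, chromosome 10, 24637914 to 24712159, minus strand) was the only member whose genotypes did not overlap. It had 80.9, 53.0, 48.5 and 75.4 CPM in K14;Nogo-A replicates 1, 2, 7 and 10, against 96.4, 83.9 and 102 CPM in wild-type replicates 3, 8 and 9. Replicates 2 and 7 were far below every wild-type library, while replicates 1 and 10 lay just under the lowest wild-type value. The means were 64.4 ± 16.1 CPM in K14;Nogo-A (SD, n = 4) and 94.2 ± 9.34 CPM in wild-type (SD, n = 3), and in the fit K14;Nogo-A was 0.684 times wild-type. The log2 fold change was -0.55 (SE 0.17, 95% interval -0.93 to -0.17, unadjusted p = 0.00912, edgeR adjusted p = 0.262). An exact two-sided permutation test over the 35 ways to split the pups gave p = 0.0857, where 0.0286 is the smallest p possible. It stayed past the study's thresholds in 4 of 7 leave-one-out fits, and not without K14;Nogo-A replicate 2, replicate 7 of K14;Nogo-A or replicate 9 of wild-type. Nearest to 0 in these fits was a log2 fold change of -0.43. Enpp1 did not pass them with the Y-linked genes (log2 fold change -0.50) or the mesenchyme markers (0.0296) as a covariate.

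Ank (ENSMUSG00000022265, chromosome 15, 27466677 to 27594909, plus strand) was measured at 339, 266, 250 and 302 CPM in K14;Nogo-A, against 353, 301 and 369 CPM in wild-type. Replicates 2 and 7 were again the lowest, and K14;Nogo-A replicates 1 and 10 fell between the wild-type libraries. The means were 289 ± 39.7 CPM in K14;Nogo-A (SD, n = 4) and 341 ± 35.7 CPM in wild-type (SD, n = 3). The log2 fold change of -0.24 (SE 0.12, 95% interval -0.50 to 0.03) had an edgeR adjusted p of 0.431. Thus the 2 genes of pyrophosphate supply had lower mean levels in K14;Nogo-A, with intervals that reached 0 for Ank and not for Enpp1 before adjustment.

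Slc20a1 (ENSMUSG00000027397, chromosome 2, 129198764 to 129211616, plus strand) had 33.2, 60.6, 55.6 and 44.9 CPM in K14;Nogo-A replicates 1, 2, 7 and 10, against 33.7, 28.5 and 34.9 CPM in wild-type replicates 3, 8 and 9. Replicates 2, 7 and 10 lay above every wild-type library and replicate 1 lay among them. The means were 48.6 ± 12.2 CPM in K14;Nogo-A (SD, n = 4) and 32.4 ± 3.36 CPM in wild-type (SD, n = 3), and in the fit K14;Nogo-A was 1.50 times wild-type. The log2 fold change was 0.59 (SE 0.18, 95% interval 0.19 to 0.99, unadjusted p = 0.00823, edgeR adjusted p = 0.253), and the exact permutation p was 0.114. Leaving out K14;Nogo-A replicate 1 gave a log2 fold change of 0.73 with an edgeR adjusted p of 0.0242, the only planned setting in which a member passed. That fit called 221 genes of the whole table. Without K14;Nogo-A replicate 2 the log2 fold change was 0.46 and neither transporter passed the study's thresholds. Slc20a1 also did not pass them with a Y-linked covariate (log2 fold change 0.38) or with the mesenchyme markers as a covariate (-0.49).

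Slc20a2 (ENSMUSG00000037656, chromosome 8, 22476788 to 22569612, plus strand), the more abundant transporter, stood at 281, 342, 316 and 338 CPM in K14;Nogo-A, against 275, 208 and 314 CPM in wild-type. Wild-type replicate 8 was the lowest library for both transporters and for Alpl. The means of Slc20a2 were 319 ± 27.6 CPM in K14;Nogo-A (SD, n = 4) and 266 ± 53.6 CPM in wild-type (SD, n = 3). Its log2 fold change was 0.27 (SE 0.14, 95% interval -0.03 to 0.56, edgeR adjusted p = 0.431).

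To set the genes against each other, CPM were divided by the length of each gene's exons in kilobases. Alpl led with 181 ± 12.7 CPM per kb in K14;Nogo-A, against 159 ± 19.7 in wild-type (SD, n = 4 and 3), higher than 98.6% of the genes tested. Ank followed with 80.06 ± 10.98 CPM per kb in K14;Nogo-A, against 94.5 ± 9.89 in wild-type, then Slc20a2 with 51.4 ± 4.44 and 42.7 ± 8.63 CPM per kb in the same order of genotypes. Phospho1 had 19.4 ± 5.44 CPM per kb in K14;Nogo-A, against 23.4 ± 1.92 in wild-type, a level that its shared exons make uncertain. Enpp1 (6.28 ± 1.57 in K14;Nogo-A, 9.18 ± 0.910 in wild-type) and Slc20a1 (8.71 ± 2.18 in K14;Nogo-A, 5.80 ± 0.602 in wild-type) closed the order. The first 4 steps held in 7 of 7 libraries. Enpp1 and Slc20a1 had no fixed order. Slc20a1 was the higher in K14;Nogo-A replicates 2, 7 and 10, and Enpp1 in K14;Nogo-A replicate 1 and in all 3 wild-type libraries.

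Ratios within a library do not depend on its scaling, and 4 were formed from the CPM per kb of the members. The ratio of Alpl, which removes pyrophosphate, to Enpp1, which makes it, was 21.1, 36.9, 40.7 and 23.7 in K14;Nogo-A replicates 1, 2, 7 and 10, against 17.3, 16.8 and 17.7 in wild-type replicates 3, 8 and 9. The wild-type values lay close together and below every K14;Nogo-A value. On the log2 scale the means were 4.88 ± 0.47 in K14;Nogo-A (SD, n = 4) and 4.11 ± 0.04 in wild-type (SD, n = 3), a 1.70-fold difference. Alpl to Ank had the same shape, at 1.77, 2.58, 2.78 and 2.08 in K14;Nogo-A against 1.66, 1.65 and 1.73 in wild-type. Enpp1 to Ank was 0.0840, 0.0701, 0.0684 and 0.0880 in K14;Nogo-A, against 0.0960, 0.0981 and 0.0974 in wild-type, again without overlap. For Slc20a1 to Slc20a2 the genotypes overlapped, with 0.132 to 0.198 in K14;Nogo-A, against 0.124 to 0.153 in wild-type. The ratios are descriptions made from the same values as the tests above and were given no p. The 3 without overlap are formed from the same 3 genes, Alpl, Enpp1 and Ank, and so are not separate results. How often ratios of other gene pairs do not overlap was not counted.

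**Figure D2:**
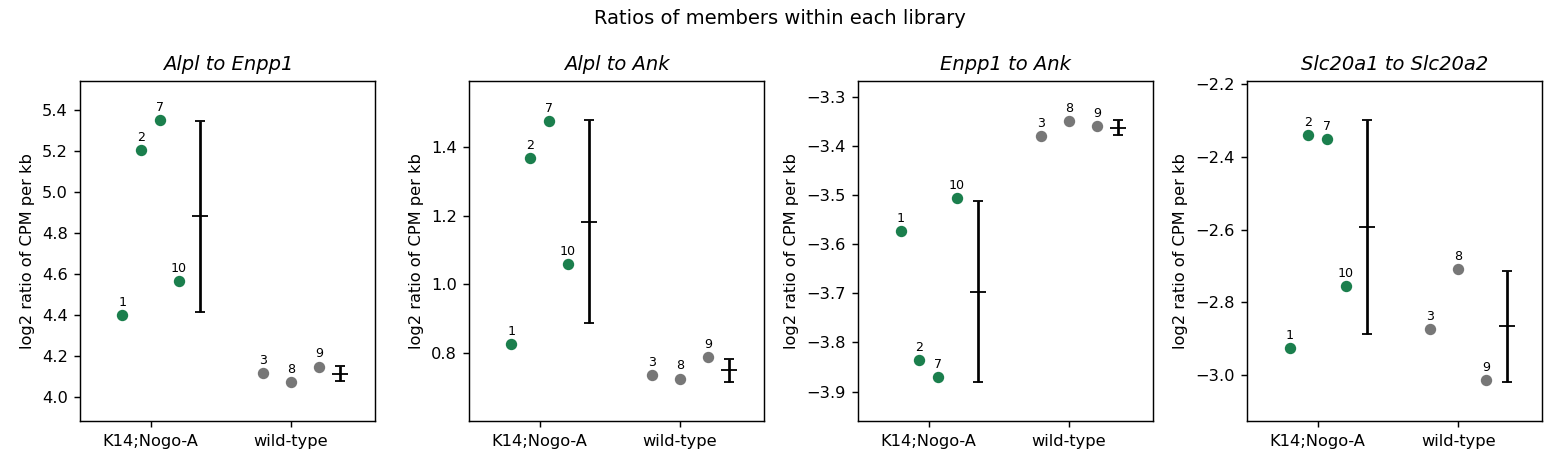
Log2 ratios of CPM per kb between members within each library, with replicate numbers beside the points and mean and SD as bars; the axes do not start at 0. The 3 wild-type points of Alpl to Enpp1 lie between 4.07 and 4.15 and the 4 K14;Nogo-A points between 4.40 and 5.35, and only Slc20a1 to Slc20a2 overlaps.

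The spread among K14;Nogo-A pups was shared by some of the members. Centred on the mean of the 7 libraries, Slc20a1 was at 0.59 and 0.47 log2 CPM in K14;Nogo-A replicates 2 and 7, where Enpp1 was at -0.50 and -0.62 and Ank at -0.21 and -0.31. In K14;Nogo-A replicate 1 each member lay on the side of its wild-type mean. Slc20a1 was at -0.27, Slc20a2 at -0.06, Alpl at -0.04, Enpp1 at 0.12, Ank at 0.13 and Phospho1 at 0.40. The order of pups was not the same for all members. Phospho1 was lower in K14;Nogo-A replicate 10 (-0.35) than in replicate 7 (-0.15), and Slc20a2 was higher in replicate 10 (0.21) than in replicate 7 (0.11). Over the 7 libraries the profiles of Alpl and Slc20a2 were the closest among the members, with a root mean square difference of 0.11 log2 CPM. Those of Enpp1 and Slc20a1 were the farthest apart, at 0.74. This difference also grows with how much each gene varies. These libraries share the same tissue preparation and differ in the levels of cell type markers, so the likeness is a description only.

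**Figure D3:**
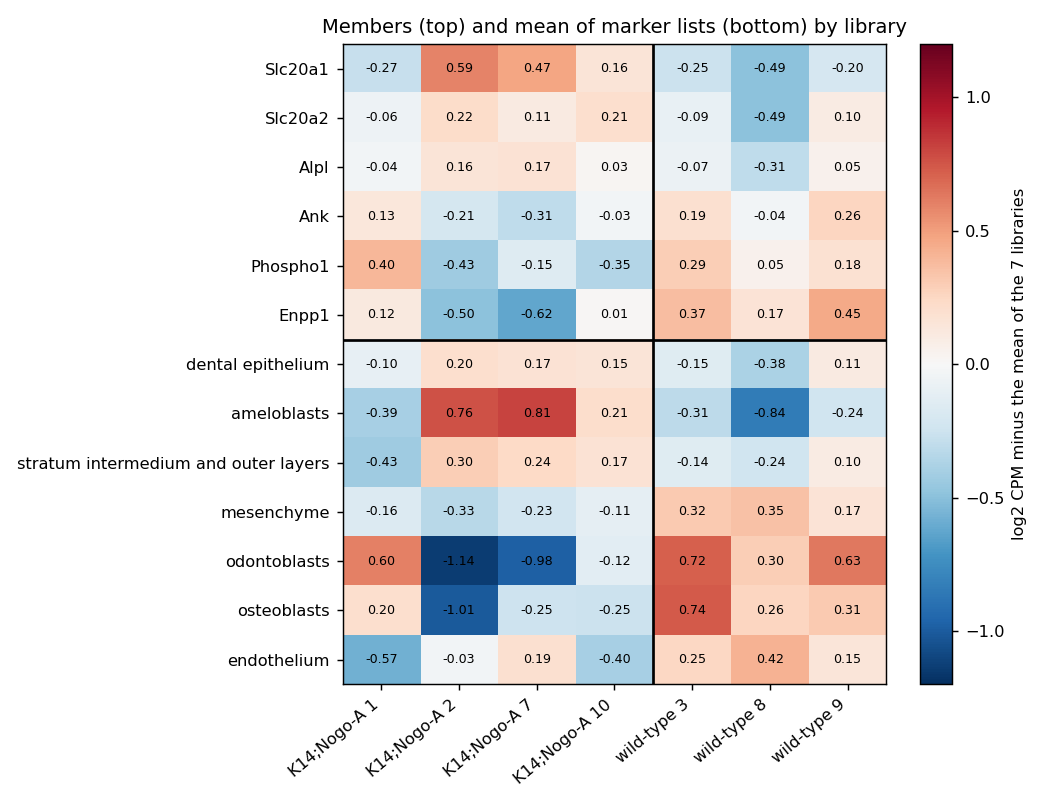
Log2 CPM of each member, above the line, and mean log2 CPM of marker lists, below it, in each library minus the mean of the 7 libraries (red higher, blue lower). K14;Nogo-A replicates 2 and 7 hold the highest values of Slc20a1 (0.59 and 0.47) and of the ameloblast list (0.76 and 0.81), and the lowest of Enpp1 (-0.50 and -0.62) and the odontoblast list (-1.14 and -0.98).

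Markers of several cell types also differed in mean level between the genotypes, and how they varied with the members was not tested. The 10 ameloblast markers summed to 35700 to 107600 CPM in K14;Nogo-A and 15680 to 44900 CPM in wild-type, with a mean log2 difference of 0.81 and 9 of 10 higher in K14;Nogo-A. The 5 odontoblast markers summed to 1733 to 4977 CPM in K14;Nogo-A and 3774 to 6104 CPM in wild-type, and all 5 were lower in K14;Nogo-A (mean log2 difference -0.96). The 6 osteoblast markers tested were lower as well. Over all 7 listed, mean log2 CPM was 4.38 to 5.59 in K14;Nogo-A, against 5.64 to 6.12 in wild-type. The 4 markers of the stratum intermedium and outer layers summed to 382 to 621 CPM in K14;Nogo-A and 428 to 589 CPM in wild-type. Of the 10 dental epithelium markers, 9 were higher in K14;Nogo-A (mean log2 difference 0.25), with sums of 8432 to 10050 CPM in K14;Nogo-A, against 6343 to 10050 CPM in wild-type. Every marker of endothelium (6 genes, mean log2 difference -0.47), immune cells (6 genes, -0.42) and erythroid cells (5 genes, -0.37) was lower in K14;Nogo-A. So were the 4 cartilage markers tested, with a mean log2 difference of -0.28 over all 5 listed. The genotypes overlapped in the mean log2 CPM of each of these 5 lists, while the summed endothelium markers did not (117 to 196 CPM in K14;Nogo-A, against 203 to 230 CPM in wild-type). Skeletal muscle went the other way, with all 4 tested markers higher in K14;Nogo-A (mean log2 difference 0.26 over all 5 listed). Of the 4 tested markers of Schwann cells and neurons, 2 were higher and 2 lower (-0.20 over all 5 listed). For both of these lists the genotypes overlapped in mean log2 CPM. No list had its markers at 0 in every library. With the mesenchyme markers as a covariate the log2 fold changes of 5 members turned, to 0.03 for Enpp1, 0.15 for Phospho1, -0.49 for Slc20a1, -0.36 for Alpl and -0.35 for Slc20a2, and each adjusted p was 1.00. As the marker levels of both genotypes lie apart, that fit compares the genotypes beyond the range either of them covers, and the part of cell makeup in the members' levels was not tested. Dspp, 1 of the 5 odontoblast markers, is named here outside the rule for naming genes given below. Dspp had 4024, 1499, 1524 and 3176 CPM in K14;Nogo-A replicates 1, 2, 7 and 10. In wild-type replicates 3, 8 and 9 it had 4801, 2996 and 5142 CPM. Among the K14;Nogo-A libraries it was highest in replicate 1 and lowest in replicates 2 and 7, as were Enpp1 and Ank.

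Beyond the members, 44 genes of phosphate and pyrophosphate handling were taken from 4 lists, and 33 of them were expressed strongly enough to be tested. Of the 33, 16 had positive and 17 negative log2 fold changes, with a median of 0.00, against -0.01 over all genes tested. None passed edgeR's quasi-likelihood test after adjustment, but 3 that were higher and 5 that were lower had an unadjusted p below 0.05, a share set against 12.9% over all genes. The study's thresholds were passed by 2 higher genes, Acp4 and Mgp, and 1 lower gene, Entpd1, where 4.77% of all genes passed. The genotypes did not overlap for 2 higher genes and 1 lower gene of the 33. Over all genes tested the share was 11.5% (5.43% higher, 6.09% lower). The values differed from list to list.

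**Figure D4:**
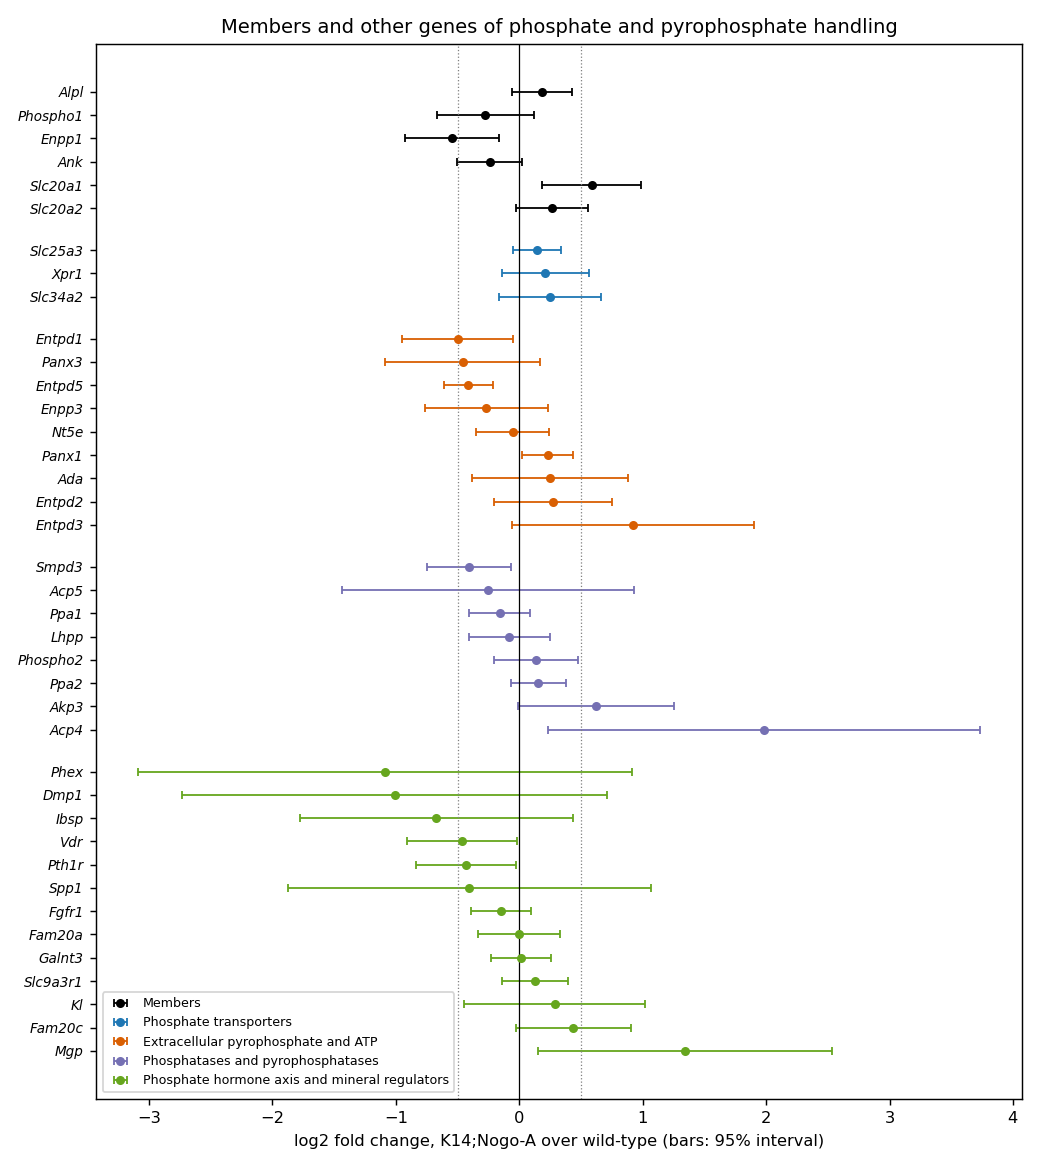
Log2 fold change of K14;Nogo-A over wild-type with its 95% interval from edgeR, for the members in black and the tested genes of the 4 lists in colour. Dotted lines mark a log2 fold change of 0.5 in either direction. Among the members, the intervals of Enpp1 (-0.93 to -0.17) and Slc20a1 (0.19 to 0.99) do not reach 0.

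The list of other phosphate transporters had 8 genes, of which 3 were tested and all 3 had positive log2 fold changes (median 0.21). Slc25a3, the phosphate carrier of mitochondria, had 444, 429, 454 and 420 CPM in K14;Nogo-A replicates 1, 2, 7 and 10, against 407, 381 and 399 CPM in wild-type replicates 3, 8 and 9. The genotypes did not overlap, but the log2 fold change was small, at 0.14 (SE 0.09, edgeR adjusted p = 0.509). Xpr1, the exporter of phosphate, had a log2 fold change of 0.21 (edgeR adjusted p = 0.610) and the sodium-dependent transporter Slc34a2 one of 0.25 (edgeR adjusted p = 0.597). Slc34a1, best known from the kidney, reached at most 4 counts in a library, and Slc34a3, Slc17a1, Slc17a3 and Slc17a4 had none.

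Of 10 other genes on the list named extracellular pyrophosphate and ATP, 9 were tested, 4 with positive and 5 with negative log2 fold changes. Being on this list does not show that each gene acts on either molecule. The channel Panx1, through which cells release ATP, had 75.2, 83.0, 77.8 and 77.5 CPM in K14;Nogo-A, against 68.4, 59.4 and 73.0 CPM in wild-type (log2 fold change 0.23, edgeR adjusted p = 0.340). Every K14;Nogo-A library was above every wild-type one. Its relative Panx3 had 58.3 CPM in K14;Nogo-A replicate 1 but 28.6, 31.4 and 31.5 CPM in replicates 2, 7 and 10, against 61.6, 54.4 and 37.6 CPM in wild-type. Entpd1, an enzyme that degrades extracellular ATP, had 6.79, 11.2, 8.89 and 5.57 CPM in K14;Nogo-A, against 11.6, 11.8 and 11 CPM in wild-type. Its log2 fold change of -0.50 (edgeR adjusted p = 0.344) lies at the threshold itself. Entpd1 did not pass the study's thresholds with RLE scaling, with the likelihood-ratio test, with DESeq2 or in 5 of 7 leave-one-out fits. Entpd3, of the same enzyme family, had 28.6, 95.4, 88.4 and 70.7 CPM in K14;Nogo-A, against 41.0, 31.4 and 40.1 CPM in wild-type (log2 fold change 0.92, edgeR adjusted p = 0.414). K14;Nogo-A replicate 1 was the lowest library for Entpd3 and the other 3 were the highest. Entpd5, named after its values were seen, had 33.8, 31.2, 29.8 and 31.5 CPM in K14;Nogo-A, against 42.6, 42.2 and 41.1 CPM in wild-type (log2 fold change -0.41, edgeR adjusted p = 0.168). It was lower in every K14;Nogo-A library, and the likelihood-ratio test of edgeR and DESeq2 called it lower. Abcc6, which is needed for ATP release in liver, reached at most 5 counts.

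Among the 10 other phosphatases and pyrophosphatases, 8 were tested, 4 in each direction. Acp4, an acid phosphatase needed for normal enamel in humans, had 72.4, 306, 311 and 223 CPM in K14;Nogo-A replicates 1, 2, 7 and 10, against 65.8, 23.7 and 84.0 CPM in wild-type replicates 3, 8 and 9. Replicate 1 was again among the wild-type libraries. The log2 fold change was 1.99 (SE 0.70, edgeR adjusted p = 0.341), and it was 1.27 with the Y-linked genes and -0.48 with the mesenchyme markers as a covariate. Smpd3, a sphingomyelinase that yields phosphocholine and is needed for bone and dentin mineral, had 309, 242, 263 and 264 CPM in K14;Nogo-A, against 398, 416 and 257 CPM in wild-type (log2 fold change -0.41, edgeR adjusted p = 0.309). The cytosolic pyrophosphatase Ppa1 had a log2 fold change of -0.16 (edgeR adjusted p = 0.573) and the osteoclast phosphatase Acp5 one of -0.25 (edgeR adjusted p = 0.864). The alkaline phosphatases Alpi and Alppl2 had no counts.

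The list of the phosphate hormone axis and mineral regulators had 16 genes, 13 of them tested, 5 with positive and 8 with negative log2 fold changes (median -0.15). Mgp, an inhibitor of mineralization that is also 1 of the 24 mesenchyme markers and the only one that was higher in K14;Nogo-A, had 10.4, 44.4, 45.1 and 34.2 CPM in K14;Nogo-A, against 14.5, 13.8 and 11.2 CPM in wild-type. Its log2 fold change was 1.34 (SE 0.49, edgeR adjusted p = 0.342), and without K14;Nogo-A replicate 1 its edgeR adjusted p was 0.00151. With a Y-linked covariate the log2 fold change of Mgp was 0.78 (edgeR adjusted p = 0.642), and with the mesenchyme markers it was 0.42, past the study's thresholds in neither. Dmp1, a matrix protein of odontoblasts and osteocytes that is also 1 of the 5 odontoblast markers, had 489.7, 81.6, 97.7 and 187 CPM in K14;Nogo-A, against 443, 377 and 473 CPM in wild-type (log2 fold change -1.01, edgeR adjusted p = 0.585). Ibsp, a bone matrix protein on the osteoblast list, had a log2 fold change of -0.67 (edgeR adjusted p = 0.576) and the FGF receptor Fgfr1 one of -0.15 (edgeR adjusted p = 0.608). The phosphate hormone Fgf23 reached at most 4 counts, Ahsg 1 and Mepe 18. Without K14;Nogo-A replicate 1, 5 genes of the lists passed after adjustment (Dmp1, Mgp, Panx3, Entpd3 and Entpd5), and without wild-type replicate 9, 1 did (Smpd3). Those fits called 221 and 93 genes of the whole table, against 5 with all libraries. None of the list genes passed the study's thresholds once replicate 10 of K14;Nogo-A or replicate 3 of wild-type was left out. Acp4 stayed past them only without replicate 1 of K14;Nogo-A or replicate 9 of wild-type, and Mgp only without K14;Nogo-A replicate 1.

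For each member, the 2 protein-coding genes with the most similar profile over the 7 libraries were found among 11248 candidates with a mean of at least 5 CPM, by the root mean square difference of centred log2 CPM. Enpp1 was closest to Ptprz1 (0.057 log2 CPM) and Myo16 (0.070), and Slc20a1 to Npc2 (0.081) and Rassf5 (0.096). Alpl was followed most closely by Pigo (0.037) and Tulp3 (0.041), Slc20a2 by Plekhb2 (0.036) and Ralgds (0.053), and Ank by Prex1 (0.039) and Coro2b (0.053). For Phospho1 the nearest profiles, 1700066M21Rik (0.094) and Gucy1b1 (0.11), were the most distant of these pairs. The differences were not scaled to how much each member varied. The SD over the libraries was 0.16 log2 CPM for Alpl, 0.32 for Phospho1 and 0.41 for Slc20a1. The likeness was measured over 7 libraries of 1 tissue.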

How the data were processed

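The authors' deposited values were raw counts per Ensembl gene. Per the labels and methods, poly(A) RNA was made into TruSeq libraries and sequenced single-end. Reads were demultiplexed with bcl2fastq 2.19, trimmed (Trimmomatic in the submitters' processing notes, fastp in the methods), aligned with STAR 2.7.1 to GRCm38 with Ensembl annotation and counted with featureCounts. Whether counting used read strand was not stated in the sources.

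The 7 libraries were grouped by their genotype label. Gene IDs were joined to GENCODE M21, and 25664 of 25700 had a symbol (the other 36 held 0.0348% of counts). A gene was tested if it reached 10 counts in a 0.5 share or more of either genotype's libraries. K14;Nogo-A was compared with wild-type by the robust quasi-likelihood test of edgeR 4.0.16 (R 4.3.3, TMM scaling, no covariate, Benjamini-Hochberg adjustment over all genes tested). Log2 CPM had a prior count of 2. The study's methods give its cutoff of 0.5 as a fold change and its legend as a log2 ratio, which was adopted here. The script was tested on simulated data. The members and lists were chosen with earlier results of these data known. Genes named beside the members were, in each list, those past the study's thresholds and up to 3 others with the highest mean CPM per kb. Alternatives were RLE and upper-quartile scaling, the likelihood-ratio test, DESeq2 1.42.0, limma-voom (limma 3.58.1), other filters, covariates and leaving out each library. No 2 libraries were duplicates. Each member had 706 (Phospho1) or more counts in every library.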

Additional observations from a re-analysis of the deposited data

Results flagged for a closer look

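Panx3 in K14;Nogo-A had 1 library far from the others of its genotype. Replicate 1 stood at 58.3 CPM and the other 3 at 28.6 to 31.5 CPM, so that the gap to the nearest of them made up 0.899 of the whole range, more than Dixon's test at 95% allows for 4 samples. Of 25 genes and ratios looked at in this way in the 4 K14;Nogo-A libraries, 1 was singled out, and chance singles out about 1 in 20.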

How the results depend on the processing

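No paired analysis was possible because the labels place no pup in a litter. The replicate numbers (1, 2, 7 and 10 against 3, 8 and 9) belong to single pups and pair none of them. No member passed after adjustment in any planned setting except Slc20a1 without K14;Nogo-A replicate 1 (adjusted p = 0.0242). Scaling, test and filter changed no direction. With the mesenchyme markers as a covariate the log2 fold changes were -0.36 for Alpl, 0.15 for Phospho1, 0.0296 for Enpp1, -0.49 for Slc20a1 and -0.35 for Slc20a2. Within the libraries high in Y-linked genes, a comparison added after seeing the data, they were 0.22 for Phospho1 and 0.0508 for Ank. The cause was not tested. With 1 library left out, the log2 fold change lay between 0.09 and 0.28 for Alpl, -0.48 and -0.18 for Phospho1, -0.67 and -0.43 for Enpp1, -0.32 and -0.17 for Ank, 0.46 and 0.73 for Slc20a1 and 0.12 and 0.41 for Slc20a2. Genes called after adjustment numbered 5 by the quasi-likelihood test, 166 by the likelihood-ratio test, 288 by DESeq2, 21 without a filter, 0 with the mesenchyme and 9 with the Y-linked covariate, and 0 to 221 with 1 library left out. The study's thresholds were passed by 705 genes, 352 with the mesenchyme covariate and 386 to 1076 with 1 library left out. Enpp1 was past them in 11 and Slc20a1 in 13 of 16 planned settings, neither with the Y-linked covariate (-0.496 and 0.38). The comparisons rest on 4 and 3 pups.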

Other observations

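The members' levels within libraries of like Y-linked expression were as follows. Among the 3 libraries high in the Y-linked genes (K14;Nogo-A replicate 1, wild-type replicates 3 and 8), the log2 fold change of K14;Nogo-A over wild-type was 0.15 for Alpl, -0.16 for Enpp1, 0.10 for Slc20a1 and 0.22 for Slc20a2. Among the 4 libraries low in them (K14;Nogo-A replicates 2, 7 and 10, wild-type replicate 9) it was 0.07 for Alpl, -0.49 for Phospho1, -0.79 for Enpp1, -0.44 for Ank, 0.62 for Slc20a1 and 0.08 for Slc20a2. Each comparison has a genotype with 1 pup, which the fit assumes to vary like the others. With so few pups no p is given for the difference between both comparisons. Libraries high in the Y-linked genes, set against those low in them in a fit with the genotype, had a log2 difference of -0.43 for Slc20a1 (edgeR adjusted p = 0.144) and 0.35 for Phospho1 (edgeR adjusted p = 0.166).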
